A study of Mus musculus with 30 samples.

Results

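A set of 10 genes, known regulators of Ly6C-low monocyte fate or genes placed around that choice, was followed across phagocytes sorted from mouse spleen: Nr4a1, Cebpb, Klf2, Klf4, Pou2f2, Hes1, Notch2, Notch1, Bcl6 and Tcf7l2. They were taken by name from the 37991 gene identifiers of the deposited count table, and all 10 had enough counts to be among the 11030 genes tested. The study sequenced 30 libraries of 500 sorted cells from 12 female mice, 6 wild-type (WT) B6 mice aged 9.4 to 15.7 weeks and 6 TLR7.1 mice aged 10.0 to 15.0 weeks. TLR7.1 mice overexpress Tlr7, whose product senses single-stranded RNA in endosomes; the labels name no further agent. Each of the 5 groups held 6 libraries, 1 per mouse. Monocytes (Mono, sorted as Ly6C+ Ccr2+ CD11b+) and red pulp macrophages (RPM, Ly6C- CD31low VCAMhi F4/80+ with absent or intermediate CD11b) came from both genotypes. Inflammatory hemophagocytes (iHPC, Ly6C- CD31hi VCAMlow F4/80low CD11b+), which engulf blood cells, came from the TLR7.1 mice alone, so they have no WT counterpart. Every gate also required live CD45.2+ cells without SiglecF and Ly6G. None of the 5 groups was sorted as Ly6C-low monocytes.

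As background, classical Ly6C-high monocytes can convert into Ly6C-low patrolling monocytes, which stay in the vessels and survey the endothelium. The conversion depends on Nr4a1, an orphan nuclear receptor that is also an immediate early gene. C/EBPβ, encoded by Cebpb, binds an Nr4a1 enhancer in monocytes, and factors of the KLF family are tied to the same locus. Notch2 signalling, met on endothelial cells that carry the ligand Dll1, favours the conversion, and Hes1 is a classic transcriptional target of Notch. Pou2f2 encodes Oct2, Bcl6 a transcriptional repressor of lymphocytes and myeloid cells, and Tcf7l2 (TCF4) a nuclear partner of β-catenin in Wnt signalling.

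The upstream sequence of Nr4a1 is shown because, unlike those of the other members, it carries repeats of TGCGTCA, a sequence that resembles the binding site of the AP-1 factors. RefSeq windows of 250 bases upstream of the gene start (build GRCm38.p6) were available for 9 members, in 11 windows, and Hes1 had none. TGCGTCA was searched on both strands and does not overlap itself. The motif was chosen after the members' windows had been read. It was found in 2 members, Nr4a1 and Cebpb, and in 1.75% of all 32851 windows. Nr4a1 held 4 matches, which begin 235, 215, 71 and 42 bases upstream, and was the 1 window of all with 4 or more. Cebpb held 1, on the opposite strand, beginning 7 bases upstream. Both windows follow, 5′ to 3′ on the gene's strand, with the matches in capitals; Nr4a1 lies at chr15:101266596-101266845 and Cebpb at chr2:167688665-167688914, both on the plus strand.
Nr4a1: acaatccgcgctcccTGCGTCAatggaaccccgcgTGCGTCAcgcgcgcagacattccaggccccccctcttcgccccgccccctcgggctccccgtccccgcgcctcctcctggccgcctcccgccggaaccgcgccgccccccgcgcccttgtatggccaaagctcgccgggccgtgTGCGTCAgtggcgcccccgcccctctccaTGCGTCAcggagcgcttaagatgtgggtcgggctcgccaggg
Cebpb: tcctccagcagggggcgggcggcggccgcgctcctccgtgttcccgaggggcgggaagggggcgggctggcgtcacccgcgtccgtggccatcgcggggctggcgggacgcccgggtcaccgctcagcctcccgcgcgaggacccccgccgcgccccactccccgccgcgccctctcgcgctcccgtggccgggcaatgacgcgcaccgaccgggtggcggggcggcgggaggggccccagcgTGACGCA
A match describes these letters only.

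Library totals ran from 95002 to 1932427 counts, and RPM libraries were the shallowest, with medians of 544757 in WT and 820242 in TLR7.1 against 1584430 and 1656511.5 in the Mono groups and 1112665 in iHPC. Levels are CPM, counts scaled to library size with TMM factors. Log2 differences are fitted by edgeR's quasi-likelihood test over all 30 libraries and given ± SE, with p-values adjusted by the Benjamini-Hochberg method over all genes tested and a call at an adjusted p under 0.05. Mice were collected on 3 days of December, with 2, 1 and 3 WT and 2, 2 and 2 TLR7.1 mice. The libraries matched their gates on most defining markers. Of 13 classical monocyte markers tested, 12 were called lower in iHPC than in TLR7.1 Mono, and of 14 red pulp macrophage markers 13 were called lower in iHPC than in TLR7.1 RPM. Of 23 Ly6C-low monocyte markers, 12 were called higher and 9 lower in WT RPM than in WT Mono, and 12 and 8 in the TLR7.1 pair. Over all genes 46.2% were called in WT and 46.6% in the TLR7.1 pair. Of the same 23 markers, 15 were called higher and 3 lower in iHPC than in TLR7.1 Mono, where 38.7% of all genes were called. Against TLR7.1 RPM 15 were higher and 1 lower, where 27.1% of all genes were called and 13.6% called higher. Among them Cx3cr1, the fractalkine receptor, stood at 196 ± 66.3 CPM (SD, n = 6) in iHPC and 2.21 ± 3.82 CPM in TLR7.1 RPM, a log2 difference of 6.07 ± 0.54 (adjusted p = 1.06e-10), and Itgax (CD11c) at 579 ± 74.0 CPM in iHPC and 13.7 ± 1.92 CPM in TLR7.1 Mono, a log2 difference of 5.38 ± 0.31 (adjusted p = 1.25e-15). Markers of other cells were present too. Basophil and mast cell markers summed to 2.78 to 4682 CPM in iHPC and to at most 21.4 CPM elsewhere, and the iHPC library of mouse 24261 held the 2.78 CPM. Of 6 T cell markers 0 were called higher and 4 lower in iHPC than in TLR7.1 RPM, of 7 neutrophil markers 2 and 0, of 6 dendritic cell markers 0 and 3, of 6 platelet markers 0 and 0 and of 3 endothelial markers 1 and 1. In iHPC against TLR7.1 Mono 9 of 11 erythroid, 5 of 6 platelet, 6 of 14 B cell, 1 of 6 T cell and 1 of 3 endothelial markers were called higher. In RPM against Mono all 11 erythroid and all 3 endothelial markers were called higher in both genotypes. The part of these markers' cells in the members' differences was not tested. B cell markers summed to 1176 to 4109 CPM in TLR7.1 RPM, 321 to 2567 in WT RPM, 634 to 1413 in iHPC and 573 to 1092 in both Mono groups.

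**Figure D1:**
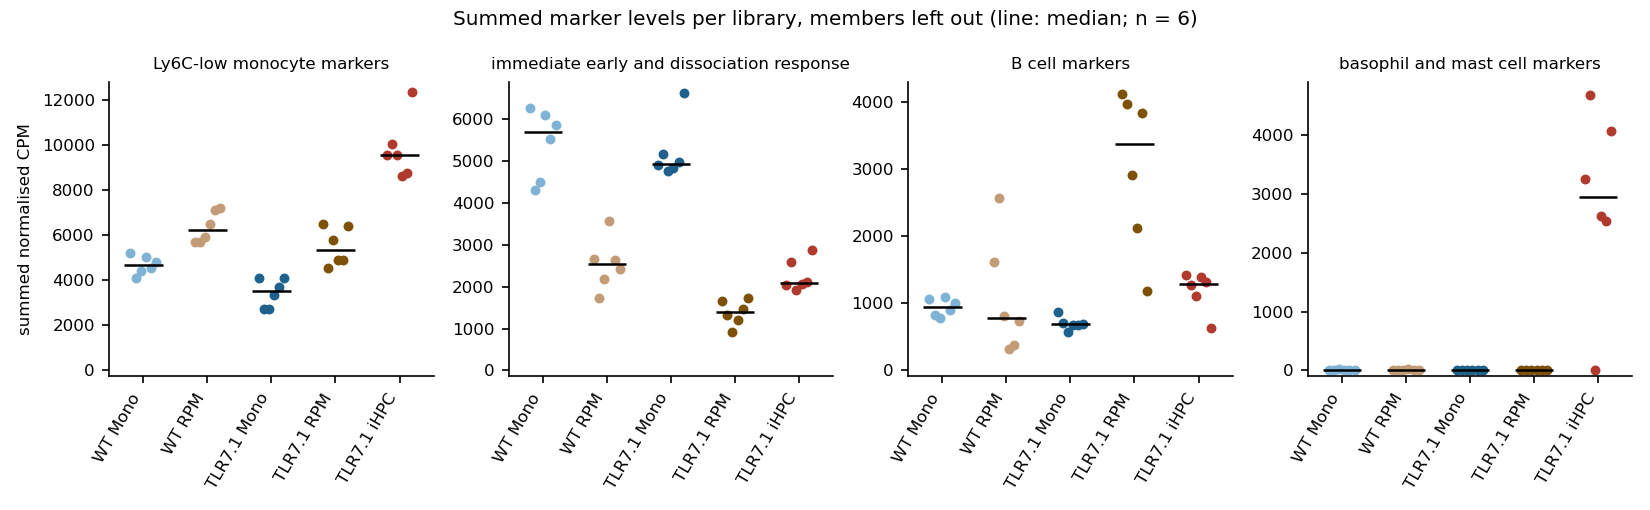
Summed normalised CPM of 4 gene lists, 1 point per library (6 per group), on linear axes, with the line at the median and the 10 regulators left out of the sums. Ly6C-low monocyte markers are highest in the iHPC libraries (8631 to 12322 CPM), immediate early genes in the Mono libraries (4295 to 6607 CPM), B cell markers in most TLR7.1 RPM libraries, and basophil and mast cell markers in 5 of 6 iHPC libraries.

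The 10 regulators did not move as a block. Nr4a1, Klf2 and Klf4 were higher in iHPC than in RPM of the same TLR7.1 mice, and the Klf2 call rested on single mice. Their difference from TLR7.1 Mono did not pass the test in the main fit, with 1, 0 and 0 of 6 mice higher. Some alternatives called each of these genes lower in iHPC than in TLR7.1 Mono. Nr4a1 was called lower in iHPC than in WT Mono. Tcf7l2, Pou2f2, Hes1 and Bcl6 were higher in iHPC than in Mono, and Notch1 and Cebpb were lower. In iHPC against TLR7.1 Mono 6 of 10 members were called (4 higher, 2 lower), where 38.7% of all genes tested were called. Against TLR7.1 RPM 5 of 10 were called, all higher, where 13.6% of all genes were called higher and 27.1% in either direction. RPM differed from Mono in 8 of 10 members in each genotype (3 higher, 5 lower), where 46.2% of all genes were called in WT and 46.6% in TLR7.1 mice. The libraries of the compared groups did not overlap for 6 members in iHPC against Mono (31.9% of all genes), for 3, all higher, in iHPC against TLR7.1 RPM (6.07% higher and 11.2% in either direction), for 5 in WT RPM against WT Mono (26.1%) and for 6 in the TLR7.1 pair (27.2%). Across genotypes, 6 members were called in iHPC against WT Mono (39.1% of all genes), 3 in iHPC against WT RPM (23.4%), 8 in WT RPM against TLR7.1 Mono (48.8%) and 8 in TLR7.1 RPM against WT Mono (48.5%). Here genotype and population change together, between different mice, and cannot be told apart. The same holds for such steps in the order of the 5 groups, which is a description. The median log2 difference of the 10 members was 0.20 in iHPC against Mono and 0.85 in iHPC against RPM, with 0.00 over all genes in both. It was -1.09 in WT RPM against WT Mono and -1.07 in the TLR7.1 pair, with -0.02 and -0.03 over all genes. As these are bulk libraries, fewer cells of one type and less RNA per cell cannot be told apart.

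**Figure D2:**
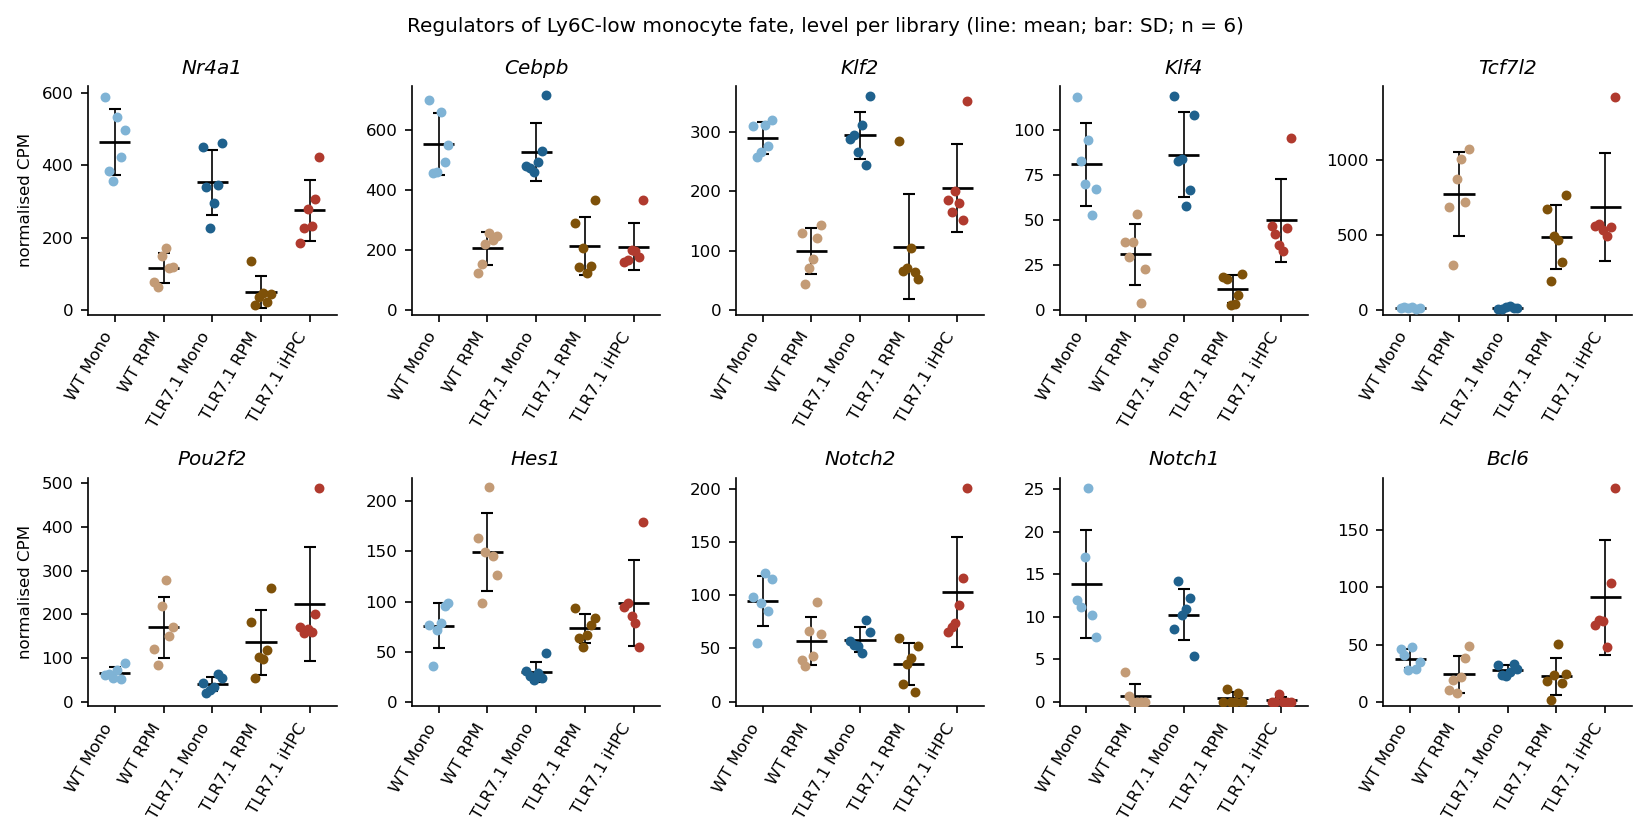
Normalised CPM of the 10 regulators by group on linear axes that start at 0, 1 point per library, with the mean (line) and SD (bar) of n = 6. Nr4a1, Klf2 and Klf4 lie high in both Mono groups, lower in iHPC and lowest in RPM, whereas Tcf7l2 is near 15.5 CPM in Mono and at 489 to 777 CPM on average in the other 3 groups.

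Nr4a1, the nuclear receptor required for Ly6C-low monocytes, was most abundant in monocytes. In WT Mono its level ran from 358 over a median of 459.6 to 590.0 CPM, and in TLR7.1 Mono from 227 over 344 to 460.5. It ran from 186 over 255 to 423 CPM in iHPC, from 65.0 over 119 to 171 in WT RPM, and from 15.5 over 40.5 to 135 in TLR7.1 RPM. Every Mono and iHPC library lay above every RPM library, and the iHPC libraries overlapped the Mono libraries. Nr4a1 was 5.85-fold higher in iHPC than in TLR7.1 RPM (log2 2.55 ± 0.33, adjusted p = 2.03e-07), in 6 of 6 mice. Leaving out mouse 24068, whose RPM library held the 135 CPM, raised that difference to 3.17. RPM stood at -2.93 ± 0.33 on the log2 scale against Mono in TLR7.1 mice and at -2.07 ± 0.31 in WT mice, both called. Against TLR7.1 Mono, iHPC differed by -0.38 ± 0.28 (adjusted p = 0.306, 95% interval -0.93 to 0.18), with 1 of 6 mice higher. Against WT Mono, iHPC was called lower (-0.77 ± 0.28, adjusted p = 0.0297). In the order of the 5 groups the steps from WT Mono to TLR7.1 Mono and from TLR7.1 Mono to iHPC did not pass the test, while the steps from iHPC to WT RPM (1.3, adjusted p = 0.00166) and from WT RPM to TLR7.1 RPM did. Of the other NR4A receptors Nr4a3 was not tested, at a mean of at most 5.41 CPM. Nr4a2, likewise an immediate early gene, stood at 24.1 ± 12.7 CPM in TLR7.1 Mono and 0.417 ± 0.702 in iHPC (log2 -5.34 ± 1.02, adjusted p = 7.44e-05). Nr4a2 was also called lower in iHPC than in TLR7.1 RPM, the direction opposite to that of Nr4a1. In TLR7.1 RPM it ran from 0.0 over 2.93 to 60.5 CPM, the highest in mouse 24107. The genes whose levels followed Nr4a1 most closely over the 30 libraries were Adgre5 (CD97, Pearson r = 0.917), Trps1 and Sorl1 (0.912 and 0.910); these libraries share mice and group differences.

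Immediate early and dissociation-response genes, which sorting itself can induce, moved in the same directions as Nr4a1 in several comparisons. Their summed level, which leaves out Nr4a1, was 4295 to 6263 CPM in WT Mono, 4750 to 6607 in TLR7.1 Mono, 1919 to 2874 in iHPC, 1729 to 3565 in WT RPM and 913 to 1730 in TLR7.1 RPM. Of 19 such genes 8 were called higher and 1 lower in iHPC than in TLR7.1 RPM, 2 higher and 9 lower in iHPC than in TLR7.1 Mono, and 1 higher and 12 lower in TLR7.1 RPM than in TLR7.1 Mono. In WT RPM against WT Mono 2 were higher and 9 lower. Over all genes 27.1%, 38.7%, 46.6% and 46.2% were called in these comparisons, in the order given. Junb, an AP-1 subunit, stood at 149 ± 18.4 CPM in iHPC and 584 ± 70.0 in TLR7.1 Mono (log2 -1.98 ± 0.17, adjusted p = 1.14e-11). Atf3 stood at 201 ± 52.0 CPM in iHPC and 45.5 ± 20.3 in TLR7.1 RPM (log2 2.26 ± 0.27, adjusted p = 4.64e-08). The part of these genes' change in the Nr4a1, Klf2 and Klf4 differences was not tested.

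Cebpb, the C/EBP factor that acts on the Nr4a1 enhancer, separated Mono from every other group. Its levels ran from 458 over 521 to 699 CPM in WT Mono and from 460.2 over 487 to 716 in TLR7.1 Mono. They ran from 126 over 228 to 257 in WT RPM, from 124 over 177 to 367 in TLR7.1 RPM, and from 160.2 over 188 to 366 in iHPC. All 12 Mono libraries were above all 18 others. Cebpb was 2.53-fold lower in iHPC than in TLR7.1 Mono (log2 -1.34 ± 0.22, adjusted p = 1.11e-05), lower in 6 of 6 mice, and RPM stood at -1.35 ± 0.23 in TLR7.1 and at -1.46 ± 0.23 in WT mice, both called. Between iHPC and TLR7.1 RPM the difference was 0.01 ± 0.23 (95% interval -0.44 to 0.45). The 3 groups below Mono stood at 206 to 213 CPM on average and none of these neighbours passed the test. Of 5 C/EBP family members tested, Cebpb included, 4 were called lower in WT RPM than in WT Mono, and in iHPC against TLR7.1 Mono 3 were lower and 1 was higher. Over all genes 46.2% and 38.7% were called. Cebpd, an inflammation-induced member, was at 33.2 ± 14.0 CPM in iHPC and 164 ± 7.79 in TLR7.1 Mono (log2 -2.36 ± 0.27). The higher one was Ddit3, the stress-induced CHOP, at 80.6 ± 27.9 and 39.7 ± 8.40 CPM (1.05 ± 0.27). The closest profiles to Cebpb belonged to Gnai2 (r = 0.938), Msrb1 (0.905) and Arhgdia (0.903).

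Klf2 and Klf4, zinc-finger factors of myeloid quiescence and differentiation, followed an order like that of Nr4a1. Klf2 ran from 258 over 292 to 319 CPM in WT Mono, from 244 over 291 to 359.6 in TLR7.1 Mono, from 151 over 183 to 352 in iHPC, from 44.4 over 104 to 143 in WT RPM and from 51.8 over 68.7 to 284 in TLR7.1 RPM. All WT RPM libraries lay below all iHPC and Mono libraries, but the TLR7.1 RPM library of mouse 24068, at 284 CPM, lay among the Mono libraries. The B cell marker sum of that library was 4109 CPM, and the TLR7.1 RPM libraries of mice 24107 and 24308 had similar sums, 3970 and 3827 CPM, with Klf2 at 65.9 and 65.0 CPM. Klf2 was 1.93-fold higher in iHPC than in TLR7.1 RPM (log2 0.95 ± 0.29, adjusted p = 0.0141), in 5 of 6 mice. The call rested on single mice: it was lost without mouse 24261 (0.86, adjusted p = 0.0595) or mouse 24380 (0.67, adjusted p = 0.0911), whose iHPC library held the highest Klf2 level, while without mouse 24068 the difference was 1.49; over the alternatives other than thinning adjusted p ran from 4.62e-05 to 0.0911. Against TLR7.1 Mono the difference was -0.54 ± 0.28 (adjusted p = 0.125), with 0 of 6 mice higher.

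Klf4 ran from 52.5 over 76.2 to 118 CPM in WT Mono, from 57.5 over 83.2 to 118 in TLR7.1 Mono, from 32.9 over 44.0 to 95.1 in iHPC, from 3.98 over 33.7 to 53.5 in WT RPM and from 2.75 over 12.9 to 19.9 in TLR7.1 RPM. The iHPC libraries overlapped Mono and WT RPM and were all above TLR7.1 RPM. Klf4 was 4.45-fold higher in iHPC than in TLR7.1 RPM (log2 2.15 ± 0.43, adjusted p = 0.000197), in 6 of 6 mice. Against TLR7.1 Mono it was at -0.85 ± 0.36 (adjusted p = 0.0598), with 0 of 6 mice higher, and with the mouse as a block it was called lower (-0.85, adjusted p = 0.0347; 0.00806 to 0.159 over the alternatives other than thinning). Klf2 correlated with Nr4a1 at r = 0.86 and Klf4 with Nr4a1 at r = 0.80 over the 30 libraries. Of 11 KLF family members tested, Klf2 and Klf4 included, 7 were called lower and 3 higher in WT RPM than in WT Mono, and 5 lower and 1 higher in iHPC than in TLR7.1 Mono. Over all genes 46.2% and 38.7% were called. Klf13 was at 74.6 ± 18.9 CPM in iHPC and 310.0 ± 31.0 in TLR7.1 Mono (log2 -2.04 ± 0.21), and Klf3 at 74.6 ± 24.2 and 230.0 ± 30.8 (-1.63 ± 0.26). Klf15 held 0 counts in both Mono groups and in iHPC and stood at 23.2 ± 11.5 CPM in WT RPM, a pattern opposite to that of Klf2 and Klf4. Klf1, the erythroid factor, reached 144 ± 46.0 CPM in TLR7.1 RPM and 12.0 ± 10.3 in WT RPM (3.55 ± 0.75, adjusted p = 0.00268), where 5 of 11 erythroid markers, Klf1 among them, were called higher. The profiles most like Klf2 were those of Diaph1 (r = 0.887), Bach1 (0.881) and Fgr (0.874), and most like Klf4 those of Pgs1 (0.898), Il17ra (0.862) and Lyst (0.848).

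**Figure D3:**
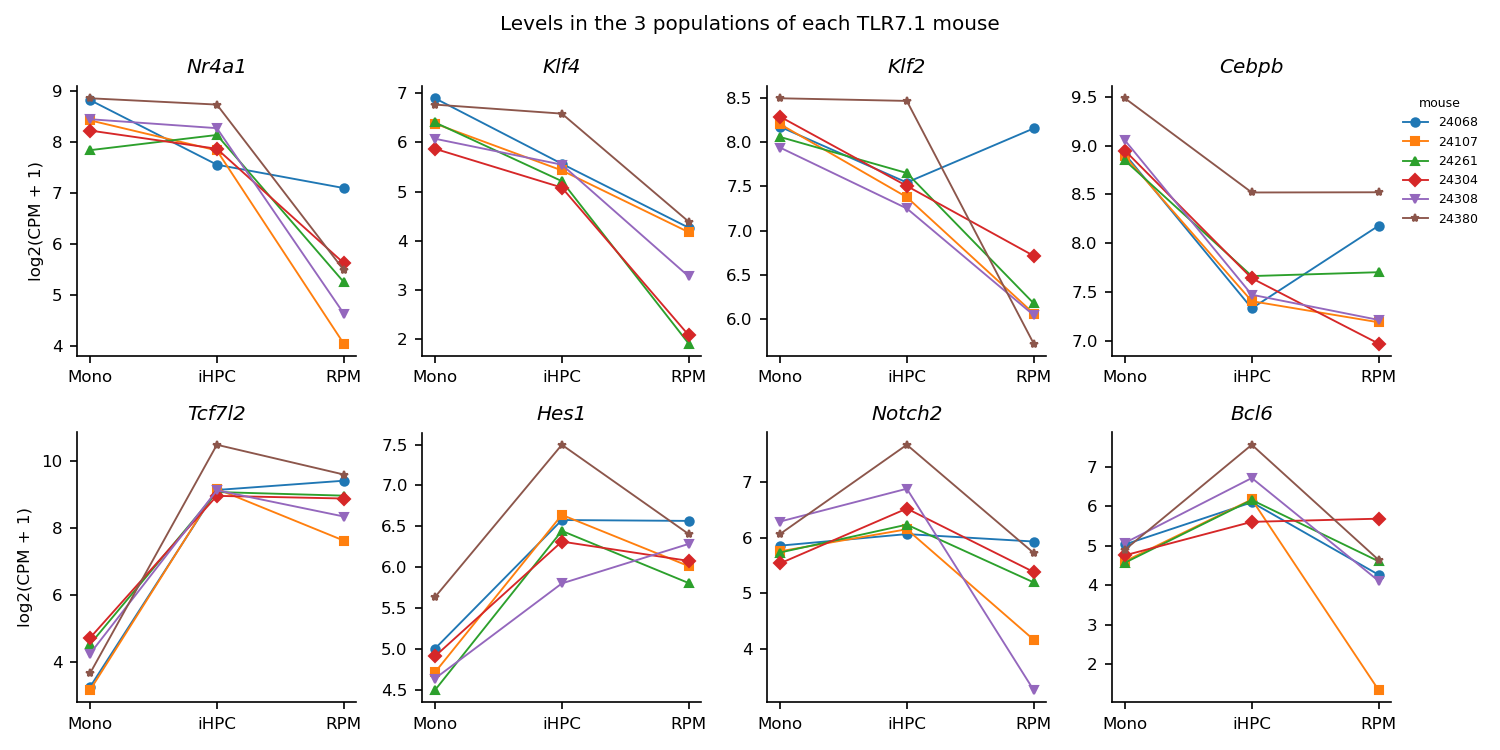
Levels of 8 regulators in the Mono, iHPC and RPM libraries of each of the 6 TLR7.1 mice, on a log2(CPM + 1) axis, 1 line per mouse. Nr4a1 and Klf4 step down from iHPC to RPM in all 6 mice, Tcf7l2 steps up from Mono to iHPC in all 6, and Notch2 peaks in iHPC in all 6.

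Tcf7l2, the Wnt-pathway factor, had the widest range of the members. It ran from 10.3 over 14.4 to 22.6 CPM in WT Mono and from 8.0 over 14.9 to 25.4 in TLR7.1 Mono. It ran from 299.8 over 799 to 1076 in WT RPM, from 196 over 483 to 769 in TLR7.1 RPM and from 495 over 557 to 1423 in iHPC. No Mono library came near any other library. Tcf7l2 was 42.8-fold higher in iHPC than in TLR7.1 Mono (log2 5.42 ± 0.37, adjusted p = 1.05e-13), 30.2-fold higher in TLR7.1 RPM (4.92 ± 0.37) and 49.9-fold higher in WT RPM than in WT Mono (5.64 ± 0.38). The neighbours WT RPM, iHPC and TLR7.1 RPM did not pass the test, and iHPC stood 0.50 ± 0.30 above TLR7.1 RPM (95% interval -0.08 to 1.09), higher in 5 of 6 mice. Of 14 TCF/LEF and Wnt effector genes tested, Tcf7l2 included, 6 were called higher and 0 lower in WT RPM than in WT Mono, 7 and 0 in the TLR7.1 pair, and 5 and 0 in iHPC against TLR7.1 Mono. Counted in either direction, these shares lie near those of all genes, 46.2%, 46.6% and 38.7%, and every call in the list was higher. The median log2 difference of the list was 0.53, 0.68 and 0.71, with -0.02, -0.03 and 0.0 over all genes. Of 6 T cell markers, 4, 6 and 1 were called higher and 0 lower in the same comparisons, in the same order. Lef1 is in both lists. The part of T cells in the calls of the Wnt list was not tested. Lrp6, a Wnt co-receptor, stood at 168 ± 63.2 CPM in WT RPM and 20.3 ± 5.77 in WT Mono (3.04 ± 0.32), and at 47.0 ± 11.8 in iHPC and 18.1 ± 6.73 in TLR7.1 Mono (1.34 ± 0.32). Tle4, a corepressor of TCF factors, stood at 116 ± 39 CPM in iHPC and 45.0 ± 4.33 in TLR7.1 Mono (1.33 ± 0.27). Vamp5 (r = 0.985), Hs3st2 (0.975) and Itgad (0.974), the integrin αD of red pulp macrophages, had the profiles most like Tcf7l2; Itgad averaged 0.744 CPM in TLR7.1 Mono, 341 in the hemophagocytes and 442 in TLR7.1 RPM.

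Pou2f2, which encodes the octamer-binding factor Oct2, was lower in monocytes than in RPM and iHPC, and iHPC did not pass the test against WT RPM (0.43 ± 0.33, adjusted p = 0.392). It ran from 51.9 over 62.5 to 89.1 CPM in WT Mono, from 19.7 over 38.5 to 62.4 in TLR7.1 Mono, from 83.0 over 161 to 278 in WT RPM, from 53.5 over 110.4 to 259 in TLR7.1 RPM and from 156 over 169 to 489.5 in iHPC. All iHPC libraries were above all Mono libraries and overlapped RPM. It was 5.47-fold higher in iHPC than in TLR7.1 Mono (log2 2.45 ± 0.34, adjusted p = 5.20e-07). RPM were higher than Mono by 1.71 ± 0.34 in TLR7.1 mice and by 1.3 ± 0.34 in WT mice (adjusted p = 0.00179). With the log2 library total as a covariate, an alternative chosen after seeing the data, the WT difference was 0.27 (adjusted p = 0.489; 0.000144 to 0.489 over the alternatives other than thinning). Against TLR7.1 RPM the iHPC level was 0.75 ± 0.33 higher without a call (adjusted p = 0.0919), in 5 of 6 mice, and was called with the mouse as a block (0.77, adjusted p = 0.0177; 0.000786 to 0.182 over the same alternatives). Oct2 and its coactivator Pou2af1 (OBF1) are best known from B cells. Pou2af1 stood at 46.1 ± 45.3 CPM in TLR7.1 RPM, 11.2 ± 13.1 in WT RPM and 3.33 ± 4.0 in iHPC, below RPM by 3.69 on the log2 scale (-3.69 ± 0.83). B cell markers were also called in the comparisons where Pou2f2 was called higher. In TLR7.1 RPM against TLR7.1 Mono 13 of 14 were higher, where 46.6% of all genes were called in either direction. In WT RPM against WT Mono 7 were higher (46.2%), and in iHPC against TLR7.1 Mono 6 (38.7%), with 0 lower in each comparison. The median B cell marker sum was 773 CPM in WT RPM and 950 CPM in WT Mono. In iHPC against TLR7.1 RPM 0 of these markers were called higher and 9 lower, where 27.1% of all genes were called. Their part in the Pou2f2 differences was not tested. Gngt2 (r = 0.911), Son (0.904) and Ptp4a2 (0.899) had the profiles most like Pou2f2.

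Notch receptors differed among themselves. Notch2, the receptor linked to Ly6C-low conversion, was present in every group, from 54.9 over 95.3 to 120.3 CPM in WT Mono, from 45.4 over 54.9 to 76.9 in TLR7.1 Mono, from 33.5 over 53.0 to 93.6 in WT RPM, from 8.67 over 38.2 to 59.9 in TLR7.1 RPM and from 65.8 over 82.3 to 201 in iHPC. All iHPC libraries were above all TLR7.1 RPM libraries. Notch2 was 2.99-fold higher in iHPC than in TLR7.1 RPM (log2 1.58 ± 0.35, adjusted p = 0.000729), in 6 of 6 mice. Against TLR7.1 Mono it was at 0.78 ± 0.32 (adjusted p = 0.0538), also higher in 6 of 6 mice, and in RPM against Mono it was at -0.80 ± 0.34 (adjusted p = 0.0544) in TLR7.1 mice. Over the alternatives other than thinning these adjusted p ran from 0.0105 to 0.331 and from 0.00213 to 0.279, so both values stand at the threshold. No pair of neighbours in the order of its 5 group means passed the test, and no gene followed it at r of 0.8 or more.

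Notch1 was low in Mono and at or near 0 in the other groups. It ran from 7.62 over 11.5 to 25.1 CPM in WT Mono and from 5.41 over 10.5 to 14.2 in TLR7.1 Mono, with 123 and 98 counts in all. WT RPM held 3 counts in 6 libraries, TLR7.1 RPM 3 and iHPC 1. Pooled over libraries the ratio of WT Mono to WT RPM was 16.4 (95% counting interval 5.47 to 80.5), that of TLR7.1 Mono to TLR7.1 RPM 15.9 (5.27 to 78.2) and that of TLR7.1 Mono to iHPC 65.1 (11.4 to 2598), and all 3 differences were called by the fit. Each lower level rests on 1 to 3 counts. Notch4, named here after its values were seen, stood at 12.5 ± 6.20 CPM in iHPC and 1.97 ± 1.72 in TLR7.1 Mono (log2 2.53 ± 0.88, adjusted p = 0.0221). Notch3, named likewise, averaged 1.76 ± 4.31 CPM in iHPC, from counts in a single library, and held 0 counts in the other groups.

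Of the 5 Notch ligands none had enough counts to be tested, and their sum was at most 20.6 CPM in any library; the largest group mean, 8.62 ± 6.58 CPM, was that of Jag1 in WT RPM. Among 14 genes that process Notch receptors 4 were called higher and 3 lower in iHPC than in TLR7.1 Mono, and 5 higher and 1 lower than in TLR7.1 RPM. Over all genes 38.7% and 27.1% were called. Psen2, a subunit of γ-secretase, stood at 290.0 ± 103 CPM in iHPC and 83.3 ± 18.6 in TLR7.1 Mono (1.78 ± 0.28, adjusted p = 5.21e-06). Poglut1, an O-glucosyltransferase of Notch, stood at 244 ± 64.0 CPM in iHPC, 89.0 ± 20.7 in TLR7.1 Mono and 51.8 ± 33.7 in TLR7.1 RPM, and was called against both. Of 12 nuclear partners and brakes of Notch 3 were called higher and 0 lower in iHPC than in TLR7.1 Mono, where 38.7% of all genes were called. They were the coactivators Maml2 (2.34 ± 0.62) and Maml3 (1.75 ± 0.51) and the ubiquitin ligase subunit Fbxw7 (1.15 ± 0.39). The DNA-binding partner Rbpj, named after its values were seen, was not among them, at 36.2 ± 17.2 CPM in iHPC and 35.0 ± 6.58 in TLR7.1 Mono.

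Hes1, a repressor and Notch target, was the member with a genotype difference in both populations. It ran from 36.0 over 77.3 to 98.5 CPM in WT Mono and from 21.6 over 27.2 to 48.7 in TLR7.1 Mono, where 1 WT library (mouse 24117) fell into the TLR7.1 range. It ran from 98.4 over 147 to 214 CPM in WT RPM and from 54.9 over 71.7 to 93.7 in TLR7.1 RPM, without overlap. Hes1 was 2.56-fold lower in TLR7.1 than in WT Mono (log2 -1.35 ± 0.26, adjusted p = 0.00138), and 2.01-fold lower in TLR7.1 than in WT RPM (-1.01 ± 0.27, adjusted p = 0.0161). The 2 effects differed by 0.35 ± 0.37 (adjusted p = 0.835, 95% interval -0.38 to 1.07). Within the 3 collection days the TLR7.1 libraries were below the WT libraries without overlap each time, by -0.88, -1.54 and -1.40 in Mono and by -0.71, -1.57 and -1.03 in RPM on log2(CPM + 1), with 1 to 3 mice on a side. Neutrophil markers moved with genotype in the same Mono libraries: 6 of 7 tested were called higher and 0 lower in TLR7.1 than in WT Mono, and the sum of the list of 11 ran from 337 over 484 to 1988 CPM in TLR7.1 and from 218 over 252 to 282 in WT Mono. S100a9, a calprotectin subunit, stood at 87.5 ± 109 CPM in TLR7.1 and 0.533 ± 0.685 in WT Mono, and Retnlg, Camp, Ngp and Cxcr2 held 0 counts in WT Mono. Their part in the Hes1 difference was not tested. The RPM call was lost when the fit held these 2 groups alone (-0.99, adjusted p = 0.0676; 0.00469 to 0.0676 over the alternatives other than thinning).

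Between populations Hes1 was 3.22-fold higher in iHPC, at 54.8 over 90.2 to 180 CPM, than in TLR7.1 Mono (log2 1.69 ± 0.27, adjusted p = 4.61e-06), in 6 of 6 mice and without overlap. It stood 1.28 ± 0.27 higher in TLR7.1 RPM than in TLR7.1 Mono and 0.93 ± 0.26 higher in WT RPM than in WT Mono (adjusted p = 0.00356). With the library total as a covariate the WT difference was 0.37 (adjusted p = 0.315; 0.000744 to 0.315 over the alternatives other than thinning). In the order of the group means, WT RPM, iHPC, WT Mono and TLR7.1 RPM did not differ from their neighbours, and only the step down to TLR7.1 Mono passed the test. Of the 8 canonical Notch targets only Hes1 and Dtx1 could be tested. Dtx1, a marginal zone B cell gene as well and named after its values were seen, held 0 counts in TLR7.1 Mono and 8.88 ± 7.38 CPM in TLR7.1 RPM and was called higher there. Hey1, Hey2, Heyl, Hes5, Hes7 and Nrarp stayed at group means of at most 4.76 CPM. Slc11a1 (r = 0.854), Zbtb20 (0.844) and Mical2 (0.826) had the profiles most like Hes1.

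Bcl6, a transcriptional repressor, was highest in iHPC. It ran from 27.8 over 37.9 to 47.6 CPM in WT Mono, from 22.8 over 27.4 to 32.6 in TLR7.1 Mono, from 7.20 over 20.4 to 48.8 in WT RPM, from 1.55 over 20.8 to 50.4 in TLR7.1 RPM and from 47.6 over 70.7 to 187 in iHPC. Every iHPC library was above every TLR7.1 Mono library. Against WT Mono the ranges all but met, with the lowest iHPC library at 47.64 CPM and the highest WT Mono library at 47.63 CPM. From each RPM group 1 library (mouse 24304 in TLR7.1 and mouse 24416 in WT) reached into the iHPC range. Bcl6 was 3.22-fold higher in iHPC than in TLR7.1 Mono (log2 1.69 ± 0.43, adjusted p = 0.00191), in 6 of 6 mice, and 4.01-fold higher than in TLR7.1 RPM (2.0 ± 0.45, adjusted p = 0.000894), in 5 of 6. Without mouse 24304 the latter was 2.66. iHPC was called above WT Mono as well (1.24 ± 0.42, adjusted p = 0.0182), and the other 4 groups did not differ from their neighbours. Of 8 tested genes of the Bcl6 complex, its antagonist Prdm1 and Bcl6 itself, 2 were called higher and 1 lower in iHPC than in TLR7.1 Mono. Over all genes 38.7% were called there. Ncor1, a corepressor, stood at 478 ± 38.8 CPM in iHPC and 337 ± 17.1 in TLR7.1 Mono (0.51 ± 0.14), and the deacetylase Hdac3 at 50.1 ± 17.3 and 103 ± 11.6 (-1.0 ± 0.30). Prdm1 (Blimp-1) stood at 27.8 ± 22.4 CPM in TLR7.1 RPM and 85.0 ± 58.5 in WT RPM (-1.53 ± 0.47, adjusted p = 0.0392). Atp2b1 (r = 0.816) was the one gene that followed Bcl6 at 0.8 or more.

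**Figure D4:**
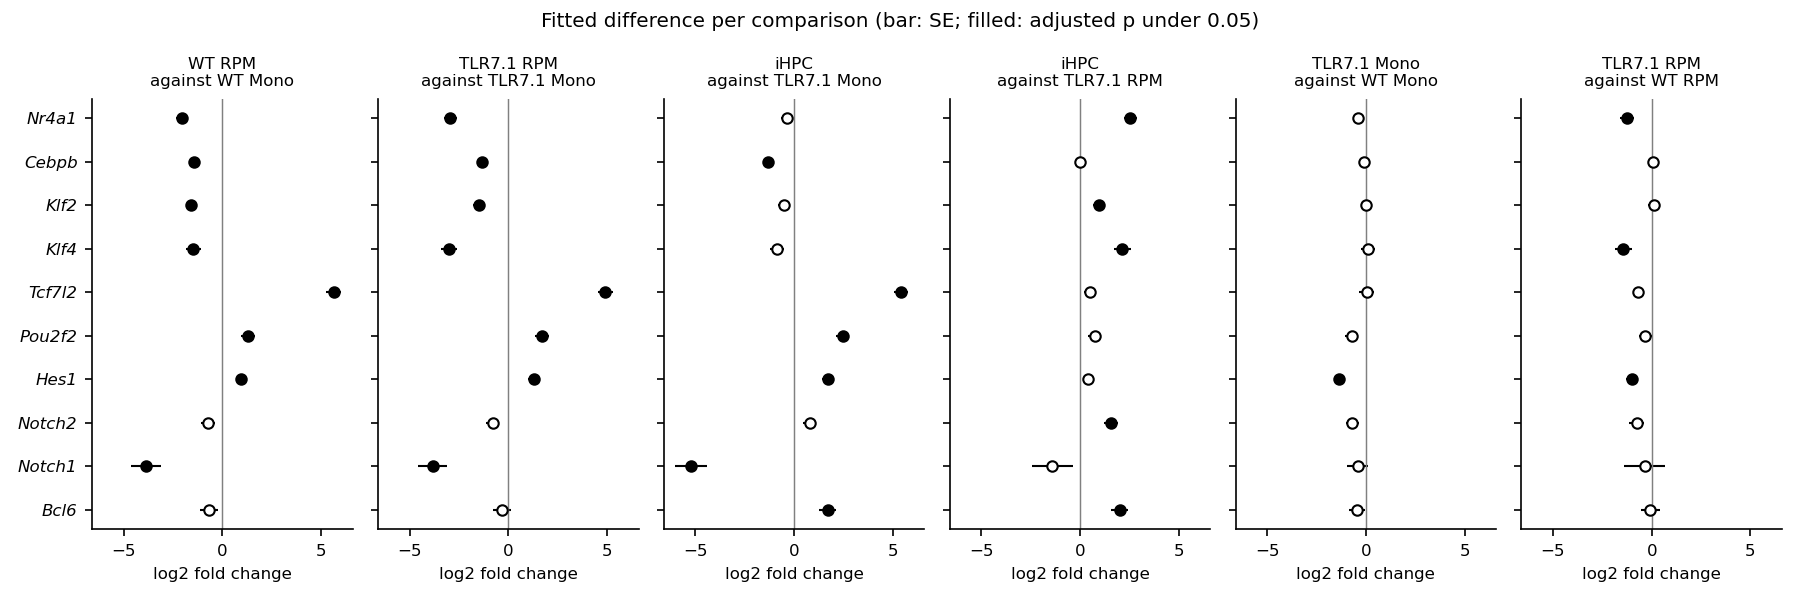
Fitted log2 fold change ± SE of the 10 regulators in 6 comparisons, filled where the adjusted p is under 0.05. Hes1 is filled in both comparisons of TLR7.1 with WT cells, and Nr4a1, Klf2, Klf4, Notch2 and Bcl6 are filled to the right in iHPC against TLR7.1 RPM.

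Genotype differences were few. In TLR7.1 against WT Mono 1 of 10 members, Hes1, was called (lower), where 2.1% of all genes were called and 0.299% were called lower. No member was without overlap there, against 4.17% of all genes. In TLR7.1 against WT RPM 3 of 10 were called, all lower, where 8.25% of all genes were called and 3.77% lower. Hes1 alone was without overlap (1.72% of all genes, 0.644% lower). Besides Hes1 these were Nr4a1, 2.37-fold lower (log2 -1.25 ± 0.34, adjusted p = 0.0186), and Klf4, 2.69-fold lower (-1.43 ± 0.45, adjusted p = 0.0424). Both rest on few libraries. Nr4a1 lost the call without WT mouse 24214 (-1.12, adjusted p = 0.0624) or TLR7.1 mice 24107 (-1.01, 0.0663) or 24308 (-1.08, 0.0638), and Klf4 lost it in 8 of the 12 fits that left out 1 mouse (-1.71 to -1.20 over the 12), with collection day as a covariate (-1.40, adjusted p = 0.0503) and without the filter on low counts (-1.43, 0.0553). With these 2 groups alone in the fit neither was called (adjusted p = 0.231 and 0.382). By collection day Nr4a1 stood at -0.60, -2.30 and -1.65 and Klf4 at -0.89, -3.09 and -0.91 in TLR7.1 minus WT RPM. In the same comparison 6 of 19 immediate early genes were called lower and 0 higher, such as Dusp1 at 146 ± 83.6 CPM in TLR7.1 and 339 ± 84.9 in WT RPM (-1.16 ± 0.25, adjusted p = 0.00282). There 2 of 14 B cell, 4 of 6 platelet and 5 of 11 erythroid markers were called higher, with 0 lower in each list. Their part in the result was not tested. Pou2f2 and Notch2 were at -0.72 ± 0.33 and -0.69 ± 0.32 in TLR7.1 against WT Mono without a call (adjusted p = 0.575 and 0.569). The genotype effect in RPM differed from that in Mono for 0 of 10 members, where 0.689% of all genes were called. At an unadjusted p under 0.05 there was 1, Klf4 (-1.52 ± 0.57, adjusted p = 0.254), and DESeq2 likewise called 0.

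**Figure D5:**
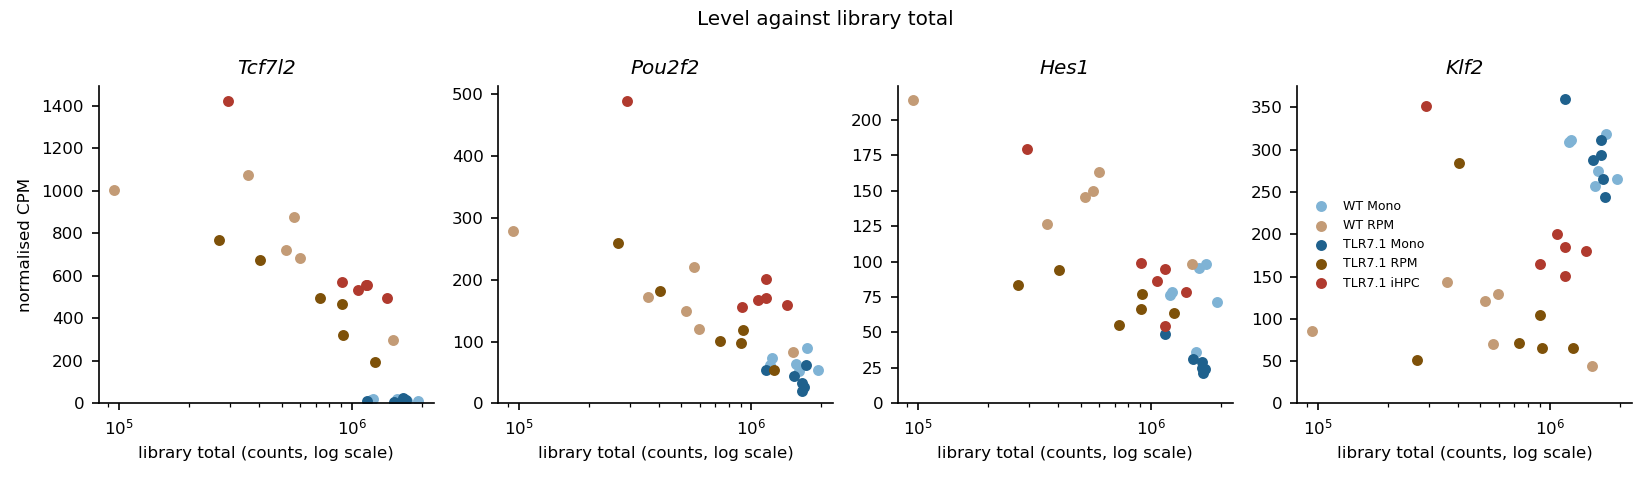
Normalised CPM of 4 regulators against the library's total count (log axis), 1 point per library. The iHPC library with 292507 counts is the highest point of its group in all 4 panels, and Tcf7l2 and Pou2f2 tend to be higher in shallower RPM libraries.

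Several levels moved with library depth inside a group. The shallowest iHPC library, from mouse 24380 with 292507 counts, held the highest level of its group for 9 of the 10 members, where 28.7% of all genes tested had their group maximum in that library. The shallowest WT RPM library, with 95002 counts, did so for 5 members and 15.9% of genes, and the deepest WT RPM library held the lowest level for 6 members and 17.9% of genes. The deepest RPM libraries (WT mouse 24117, TLR7.1 mouse 24107) also held the lowest red pulp macrophage marker sums of their groups, 11882.5 and 8685.8 CPM. The shallowest (mice 24323 and 24380) held the highest, 20768.0 and 19160.9 CPM. Depth and marker content cannot be told apart in RPM. Without the 3 libraries under 300000 counts, an alternative chosen after seeing the data, Klf2 lost its call in iHPC against TLR7.1 RPM (0.67, adjusted p = 0.0883), and Klf2 and Klf4 were called lower in iHPC than in TLR7.1 Mono (-0.69, adjusted p = 0.0413, and -1.04, 0.0198). With the library total as a covariate Nr4a1 (-0.77, adjusted p = 0.00869; 0.00869 to 0.544 over the alternatives other than thinning), Klf2 (-0.90, 0.00472) and Klf4 (-1.15, 0.0108) were all called lower in iHPC than in TLR7.1 Mono, and Pou2f2 (1.02, 0.000786) and Tcf7l2 (0.74, 0.00561) higher in iHPC than in TLR7.1 RPM. In the iHPC library of mouse 24261, where basophil and mast cell markers were at 2.78 CPM, 9 of 10 members lay within the range of the other 5 iHPC libraries. Leaving out that library alone ended no call of a member in iHPC against Mono or RPM, and Notch2 was then called higher than in Mono (0.87, adjusted p = 0.0407).

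Per kilobase of exon, the scale on which genes can be compared, Cebpb led the members in both Mono groups (368 and 350.0 CPM per kb in WT and TLR7.1 mice) and in iHPC (141), ahead of Klf2 (157, 159 and 111) and Nr4a1 (132, 101 and 78.5). In RPM Cebpb (137 in WT and 142 in TLR7.1) was followed by Tcf7l2 (88.6) and Hes1 (73.4) in WT and by Klf2 (57.9) and Tcf7l2 (55.7) in TLR7.1 mice. These are group means. The Klf2 mean in TLR7.1 RPM, 107 CPM, includes mouse 24068 at 284 CPM and lies above the median of 68.7 CPM. Its place ahead of Tcf7l2 rests on that library. In iHPC Tcf7l2 stood at 78.6, Hes1 at 48.4, Pou2f2 at 27.2, Klf4 at 16.3, Bcl6 at 13.6 and Notch2 at 9.54 CPM per kb. Over the 30 libraries Pou2f2 and Tcf7l2 correlated at r = 0.85, and Notch2 with Nr4a1 at r = 0.78; these values describe libraries that share mice, depth and group differences.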

How the data were processed

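RNA of 30 libraries was measured. Per the labels' protocols, 500 cells per library were sorted and amplified with the SMART-Seq v4 and Nextera XT kits. Per the submitters' processing notes, reads were handled with HTSeq 0.4.1, TopHat, Bowtie, SAMtools, FastQC, Picard and CASAVA 1.8.2, with build NCBIM37; which annotation release and strand setting were used is not stated in the labels. The authors deposited whole-number counts per Ensembl gene, not normalized, for 37991 identifiers. All columns were mapped from the labels, leaving 0 unmapped. Symbols and exon lengths came from GENCODE M21 (32938 identifiers with 99.11% of the counts), and sequences from RefSeq GRCm38.p6. These builds differ from that of the files, so no coordinates are tied to the counts.

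Genes were kept by filterByExpr (11030), scaled by TMM (factors 0.943 to 1.07) and fitted with a robust quasi-likelihood model with 1 mean per group over the 30 libraries, in R 4.3.3 with limma 3.58.1 and edgeR 4.0.16, and tests were two-sided. In simulated data for iHPC against TLR7.1 Mono with 200 of 11030 genes changed, 33.7% of 2-fold and 72.5% of 4-fold changes were recovered, and 2.9% of calls were false. In the real comparison 38.7% of genes were called, which sets another cutoff for the adjusted p. The simulated recovery therefore does not give the share of differences missed there. Libraries of 1 mouse are paired by animal; within-mouse correlations of residuals ran from -0.077 to 0.209, and the mouse was a block in an alternative only.

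The members and the 23 further gene lists were chosen with earlier results of these data known. All members are named. Of each other list up to 4 called genes per comparison, with the largest changes and at least 20 CPM in the higher group, could be named; for likeness, the 3 genes with the highest Pearson r of log2(CPM + 1), at r of 0.8 or more. Alternatives were DESeq2 1.42.0, RLE scaling, no count filter, the mouse block, collection day, only the groups compared, thinning to 95002 counts and leaving out each mouse. A depth covariate, leaving out 3 shallow libraries and leaving out 1 iHPC library were added after seeing the data.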

Additional observations from a re-analysis of the deposited data

Results flagged for a closer look

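In 13 of 50 groups of 6 libraries, 1 library stood apart from the other 5 by Dixon's test at the 95% level. Chance gives about 1 in 20 for independent, normally distributed values. These are CPM on a linear scale, members share libraries, and Notch1 had 4 or 5 libraries at 0 in the groups flagged. The count of flags therefore cannot be set against that rate. The iHPC library of mouse 24380 accounts for 7 of them, each time as the highest: Cebpb at 366.26 CPM, Klf2 at 352.17, Klf4 at 95.09, Pou2f2 at 489.52, Hes1 at 179.61, Notch2 at 200.74 and Tcf7l2 at 1422.77 CPM. It is the shallowest of its group, with 292507 counts. In the Mono library of the same mouse, the shallowest of its group too, Cebpb stood apart at 716.42 CPM and Hes1 at 48.66 CPM. In the TLR7.1 RPM library of mouse 24068 Nr4a1 stood apart at 135.4 CPM and Klf2 at 283.83 CPM. For Notch1 the libraries were WT RPM of mouse 24028, at 3.44 CPM, and iHPC of mouse 24261, at 0.93 CPM, which rests on 1 count.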

How the results depend on the processing

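No member changed direction where a call was made. Thinned to 95002 counts, 5449 genes and 9 members, without Notch1, were tested, against 11030 and 10 in the main fit. The members called were then 0 and 0 in the genotype comparisons of Mono and RPM, 1 and 1 in RPM against Mono (WT, TLR7.1), 1 in iHPC against Mono and 0 in iHPC against RPM. The genes called were 5, 1, 384, 359, 178 and 93, and 0 for the interaction, from 232, 910, 5098, 5135, 4270, 2993 and 76 in the main fit. Depth therefore limits these counts. Log2 values of called members that moved by over 1.5 times on thinning were Klf4 (0.26 in iHPC against RPM, -1.36 in TLR7.1 RPM against Mono, -0.41 in the RPM genotype comparison), Bcl6 (3.46 and 1.41 in iHPC against Mono and RPM), Hes1 (0.49 in iHPC against Mono), Pou2f2 (2.54 in WT RPM against Mono), Nr4a1 (-1.44 in WT and -1.70 in TLR7.1 RPM against Mono), Klf2 (-0.46 in WT), Cebpb (-0.49 in TLR7.1) and Tcf7l2 (3.14 in TLR7.1 RPM and 4.08 in iHPC against Mono); Tcf7l2 kept both calls and the others lost theirs. With only the groups compared, 2 members and 737 of 9878 genes tested were called in TLR7.1 against WT Mono. In TLR7.1 against WT RPM 0 members and 160 of 7945 genes were called, and in iHPC against RPM 1753 of 9079 genes. The cause was not tested. The interaction gave 209 genes with DESeq2 and 125 with the depth covariate. With the mouse as a replicate block, 8, 8, 7 and 6 members were called in WT RPM against WT Mono, the TLR7.1 pair, iHPC against Mono and iHPC against RPM, Klf4 and Pou2f2 being the additions, and no other call changed. Leaving out 1 mouse, the members called were 1 to 1, 1 to 3, 8 to 9, 8 to 9, 6 to 7, 4 to 5 and 0 to 0, and the genes 160 to 263, 584 to 1354 (584 without WT mouse 24214), 4524 to 5210, 4534 to 5102, 3571 to 3996, 2509 to 2882 and 29 to 145 (29 without WT mouse 24415, 145 without WT mouse 24117, 44 to 46 without 24261, 24308 or 24416), in the order above. Notch1 without mouse 24028 stood at -5.13 in WT RPM against WT Mono, without 24107 at -4.53 in the TLR7.1 pair and without 24261 at -6.50 in iHPC against Mono. With the depth covariate the RPM differences from Mono moved by over 1.5 times for Nr4a1 (-2.88 in WT, -3.58 in TLR7.1), Tcf7l2 (4.63, 4.12), Klf2 (-2.27 in WT), Cebpb (-2.13 in WT) and Pou2f2 (0.87 in TLR7.1), which kept their calls; Notch2 (-1.40, adjusted p = 0.00301) and Bcl6 (-1.31, adjusted p = 0.0488) gained one in WT, and Notch2 in TLR7.1 mice (-1.37, adjusted p = 0.00213).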
